A study of Rattus norvegicus with 48 samples.

Results

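After a fast of 2 days, 120 of 13050 tested genes and other annotated features differed in the cerebral endothelial cells (CECs) of rats from those of rats with free access to food, which is 0.920% of those tested. The genes with a symbol that rose included Slc16a1, which encodes the monocarboxylate transporter MCT1, Bdkrb2, the bradykinin B2 receptor, Alas1, which starts heme synthesis, and Slc52a2, a riboflavin transporter. Those that fell were Cacybp, a partner of ubiquitin ligases, the annexin Anxa1, the guanine nucleotide exchange factor Arhgef15, the actin filament protein Afap1l1 and the sheddase Adam17. The comparison took the 6 samples of the fed rats (AL rats) and of the rats fasted for 2 days (F2 rats), 3 samples each, of the 12 samples in all. The remaining 6 samples came from rats fasted for 1 day (F1 rats) or 3 days (F3 rats) and entered the same statistical model.

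All groups were male Wistar-Han rats with water at all times and no drug or genetic change named in the labels. Food was taken from F2 rats in the morning, the bedding was replaced, and the rats were killed at the same hour 2 days later. CECs were sorted with magnetic beads from pooled cortices, first by removing cells with the microglial surface protein CD11b and then by keeping cells with the endothelial surface protein CD31. Each sample is thus a pool of animals, lettered i, j or k, and its RNA was sequenced in 4 technical replicates whose counts were summed. In such bulk samples, fewer cells of a type and less RNA per cell cannot be told apart.

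CECs form the blood-brain barrier: tight junctions seal the spaces between them, and substances enter the brain mainly through transporters in their membranes. During a fast the liver releases ketone bodies made from fatty acids, and MCT1 carries these, with lactate and pyruvate, across the barrier. Fatty acids also activate the nuclear receptors of the PPAR family, which drive genes of fatty acid oxidation and Angptl4, an inhibitor of lipoprotein lipase.

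The stretches in front of 4 of the genes that changed are shown because they hold one of the motifs searched and because MCT1 is the gene the study turns on. They are the 250 bases before the gene's start in RefSeq (build GRCr8), written 5′ to 3′ on the gene's strand, with the motif match in capitals.
Slc16a1, chr2:194812410-194812659, plus strand: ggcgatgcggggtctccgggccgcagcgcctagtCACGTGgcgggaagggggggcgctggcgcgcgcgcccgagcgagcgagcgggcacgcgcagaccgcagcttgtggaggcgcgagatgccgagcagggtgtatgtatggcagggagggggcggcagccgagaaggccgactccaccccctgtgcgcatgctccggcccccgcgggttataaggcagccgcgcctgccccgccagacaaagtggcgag
Akap12, chr1:43135265-43135514, plus strand: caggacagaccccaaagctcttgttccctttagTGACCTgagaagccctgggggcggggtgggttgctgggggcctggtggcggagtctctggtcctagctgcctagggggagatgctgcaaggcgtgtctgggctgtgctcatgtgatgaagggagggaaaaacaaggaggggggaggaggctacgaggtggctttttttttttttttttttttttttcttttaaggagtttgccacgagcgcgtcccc
Adtrp, chr17:23113328-23113577, plus strand: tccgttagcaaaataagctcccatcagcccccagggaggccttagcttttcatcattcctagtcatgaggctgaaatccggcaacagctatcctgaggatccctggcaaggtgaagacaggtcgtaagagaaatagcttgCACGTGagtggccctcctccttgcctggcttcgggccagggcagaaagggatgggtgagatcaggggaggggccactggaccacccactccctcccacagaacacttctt
Cacybp, chr13:74981240-74981489, minus strand: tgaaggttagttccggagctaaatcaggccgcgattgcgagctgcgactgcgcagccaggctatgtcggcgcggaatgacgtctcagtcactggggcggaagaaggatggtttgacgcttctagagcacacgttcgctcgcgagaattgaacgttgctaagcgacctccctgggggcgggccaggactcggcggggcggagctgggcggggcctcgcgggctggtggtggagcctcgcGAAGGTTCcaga
Promoter sequences were matched for 12 of the 15 genes with a symbol that changed, and not for Bdkrb2, Slc52a2 and Arhgef15. The E-box CACGTG stood in front of Slc16a1 (bases 216 to 211 before the start) and of Adtrp (110 to 105), and in 5.59% of all 33469 promoters of this length. The nuclear receptor motif AGGTCA stood in front of Akap12 (217 to 212), where the reverse strand holds it, and in 14.1% of all promoters. The core of a heat shock element, GAANNTTC, stood in front of Cacybp (12 to 5) and in 7.23% of all promoters. Neither the AP-1 site TGANTCA (6.34% of all promoters) nor the cAMP response element TGACGTCA (1.59%) was found in the 12 windows. The GC box GGGCGG, not capitalized above, stood in 8 of the 12 and in 30.5% of all promoters. Both strands were searched, no 2 of the capitalized matches overlapped, and a match is a description of letters only. The window of Slc16a1 had a GC content of 74.0%, that of Anxa1 45.2%, and the median of all promoters was 51.2%.

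The spread among samples of the same group was largest in F2 rats. The median standard deviation of log2 CPM (reads of a gene scaled to the size of the library) over all genes was 0.182 in the F2, 0.126 in the AL, 0.123 in the F1 and 0.110 in the F3 group (n = 3 samples each), and the biological coefficient of variation was 15.2%, 11.5%, 8.50% and 8.48% in the same order. The larger spread lay in the pairs that included F2 sample j. Among the 9459 features with a mean of at least 100 normalized counts (counts scaled to a common library size), the median standard deviation in F2 rats was 0.150, but 0.0655 between samples i and k alone, 0.156 between j and k and 0.152 between i and j. The corresponding value of AL rats was 0.0953, and 0.0762 to 0.0792 with 1 sample left out. In F2 sample j, 146 features lay more than 2-fold below the mean of samples i and k, and 8 lay more than 2-fold above it. In each of the other 11 libraries, between 7 and 84 features lay more than 2-fold from their group mates. Of the 146 features, 133 were lowest in F2 sample j among all 12 samples, a count that depends in part on their choice by a low value there. The assigned reads of F2 sample j (23537074) and the features it detected (15222) lay within the range of the other libraries (20718644 to 25960874 reads, 15007 to 15526 features).

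**Figure D1:**
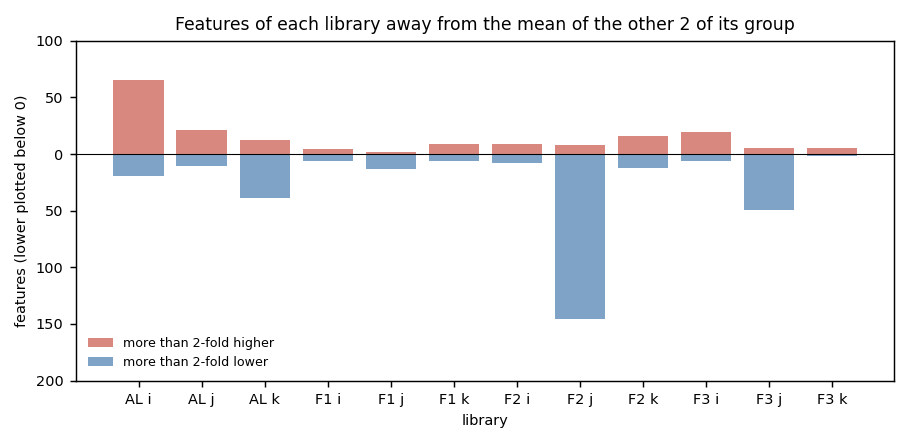
Number of features (vertical axis) in each library (horizontal axis) that lay more than 2-fold above (red) or below (blue, drawn downward) the mean of the other 2 libraries of the group, among features with a mean of at least 100 normalized counts. F2 sample j has 146 features below and 8 above.

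Of the 146 features, 18 had a gene symbol, and among genes with a mean of at least 100 normalized counts, the 5 with the largest excess of variance in F2 rats were all of these 18. Cbl, a ubiquitin ligase that ends receptor signalling, had 888 and 778 normalized counts in F2 samples i and k and 265 in sample j, against 648, 703 and 770 in AL samples i, j and k. Birc6, an inhibitor of apoptosis, had 4409 and 4396 against 1497 in sample j, with 3743, 3767 and 4111 in AL rats. Braf, a kinase of the MAP kinase cascade, had 396 and 436 against 141, with 332, 305 and 390.0 in AL rats. For these genes samples i and k lay above the AL samples, and sample j lay below all of them. Ago2, an Argonaute protein, had 293 and 281 against 102, and the transcription factor gene Bbx had 399 and 404 against 149. The receptor gene Bmpr2 had 14442 and 14334 against 5874, and the pericyte gene Abcc9 had 3408 and 3979.5 against 1809. None of the 146 features was called in F2 against AL rats (0.920% of all features were). When sample j was left out, 8 of them were called (1.18% of all features were). The 146 were chosen for their low value in sample j, which widens the spread in F2 rats, so these counts are not independent evidence. Whatever set sample j apart was not tested.

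**Figure D2:**
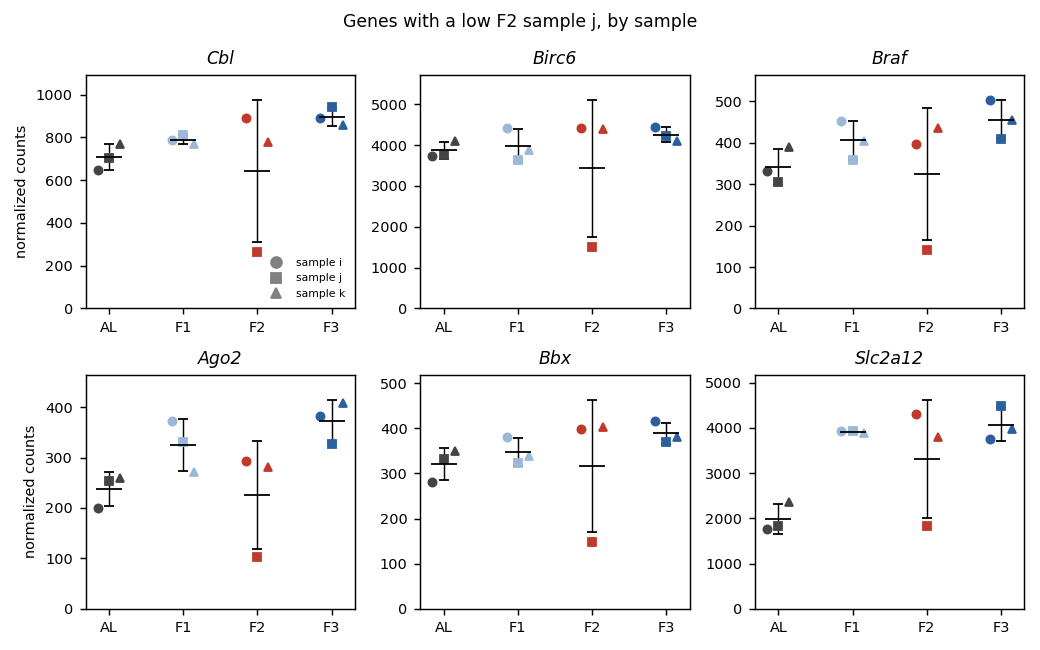
Normalized counts (vertical axis, from 0) by group (horizontal axis) for 6 genes that were low in F2 sample j (red square). Points are samples, and bars give the mean and SD (n = 3). For Slc2a12, F2 sample j lies at the level of the AL samples and F2 samples i and k lie above them.

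The sorted cells carried endothelial transcripts. Of the 14 endothelial markers listed, 8 had a symbol here, and Pecam1, which encodes CD31, had 31655, 35586 and 32024 normalized counts in AL rats and 31872, 32295 and 32172 in F2 rats. None of the 8 was called. Claudin-5 and VE-cadherin were not looked up, since symbols were read from a shortened copy of the study's gene table. Transcripts that mark other cells were present too, and apart from the astrocyte list, their sums were below Pecam1. Summed over 4 pericyte markers, AL rats had between 2614 and 6424 normalized counts and F2 rats between 3481 and 6738, and over 2 smooth muscle markers 388 to 467 and 454 to 672. The 8 markers of microglia and macrophages, C1qa, C1qb and C1qc among them, summed to 227 to 297 and 289 to 362. The sums were 738 to 1729 and 1160 to 1737 for 5 fibroblast markers, 330.3 to 441 and 427 to 504 for 2 oligodendrocyte markers, and 903 to 989 and 933 to 1019 for 2 red blood cell markers. The 6 neuronal markers summed to 759 to 888 in AL rats and 937 to 1084 in F2 rats, so that this sum did not overlap, mainly by Camk2n1. Among 5 astrocyte markers (47636 to 51838 and 48521 to 59278), most of the counts came from Apoe, and the sums exceeded Pecam1. No marker of these lists was called in F2 against AL rats. Their part in the results below was not tested. Within AL rats, the pericyte marker Abcc9 was highest in sample i (3560) and lowest in sample k (1509).

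Of the 120 features, 70 were higher (0.536% of those tested) and 50 lower (0.383%) in F2 rats (quasi-likelihood test of edgeR, p-values adjusted after Benjamini and Hochberg). In all 120 the F2 samples did not overlap the AL samples, as in 15.5% of all features tested (6.89% with F2 rats above and 8.66% with F2 rats below). The median Log2 fold change (LFC) was 0.81 for those that rose and -0.57 for those that fell, 18 rose by at least 1 and 3 fell by at least 1. The share of rises was 58.3%, but 46.7% when counts were scaled by total counts and 68.4% under upper-quartile scaling, and it was 37.7% without AL sample i and 78.1% without AL sample j. The count itself was 38 without AL sample k and 40 without F2 sample i. A model of only the 6 samples called 0 features with edgeR (1189 at an unadjusted p under 0.05), with a smallest adjusted p of 0.0775, whereas DESeq2's Wald test on the 12 samples called 359. A symbol could be assigned to 15 of the 120 as a gene (0.995% of the 1508 such genes tested) and a clone name to 1 more. The other 104 are known here by identifier only. ENSRNOG00000057347 rose most among those with at least 100 normalized counts (449, 436 and 259 in AL rats against 1588, 2034 and 880.1 in F2 rats, LFC 1.97, standard error 0.26, adjusted p = 0.00410), and ENSRNOG00000015076 fell most (367, 346 and 317 against 128, 146 and 100.2, LFC -1.46, standard error 0.17, adjusted p = 0.00326).

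**Figure D3:**
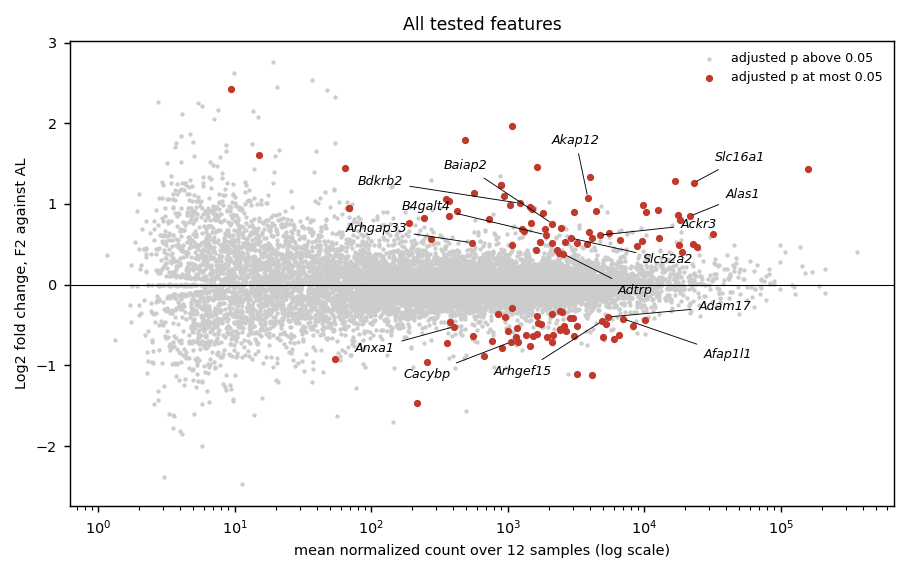
LFC of F2 against AL rats (vertical axis) against the mean normalized count of the 12 samples (horizontal axis, log scale) for all 13050 features tested. Red points had an adjusted p of at most 0.05, and the 15 of these with a gene symbol are named, 10 above 0 and 5 below.

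Slc16a1 (ENSRNOG00000019996) had 16911, 11619.6 and 13395 normalized counts in AL samples i, j and k and 31256, 36341 and 32858.5 in F2 samples i, j and k. The lowest F2 sample lay well above the highest AL sample, and the group mean was 2.40-fold higher (LFC 1.26, standard error 0.14, adjusted p = 0.00298). The call held in each of the 6 fits that left out 1 AL or F2 sample, with adjusted p-values of 0.00130 to 0.00970. F1 rats had 20568 ± 3262 and F3 rats 24157 ± 1594 (SD, n = 3), so that the mean was highest at day 2. From F1 to F2 rats Slc16a1 rose (LFC 0.70, standard error 0.14, adjusted p = 0.0322, where 1.34% of features were called), a call that was lost without F2 sample j (0.0625) and without F2 sample k (0.0640). Against F3 rats the LFC was 0.47 (standard error 0.14, adjusted p = 0.0601).

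The list of ketone and monocarboxylate transport and use held 8 tested genes of 18, and Slc16a1 was the only one called (0.995% of the genes with a symbol were). Bsg, which encodes the chaperone that brings MCT1 to the membrane, had 159908, 165445 and 165432 normalized counts in AL rats and 170526, 211037 and 164292 in F2 rats (LFC 0.15, adjusted p = 0.615). Bdh1, which interconverts the ketone bodies, had LFC 0.14 (adjusted p = 0.761) and Acat1, which cleaves acetoacetyl-CoA, -0.04 (0.906). The monocarboxylate transporter gene Slc16a4 had -0.08 (0.767). The median LFC of the 8 was 0.05, and -0.02 without F2 sample j, beside -0.01 over all features.

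Among other transporter genes, Slc52a2 (ENSRNOG00000032561) rose. It had 2215, 1906 and 2208 normalized counts in AL rats and 3203, 3195 and 3047 in F2 rats (LFC 0.58, standard error 0.08, adjusted p = 0.00424), and the F2 samples lay close together, above all AL samples. The call held in all 6 fits with 1 sample left out, and F1 and F3 rats had 3041 ± 85.7 and 3324 ± 269 (SD, n = 3). The 49 solute carrier genes with a symbol here, Slc16a1 and Slc52a2 included, were named from the study's sheet of transporters that differed in F1, F2 or F3 rats. They were thus chosen on these samples, and their counts are not independent evidence. Of the 49, these 2 were called and 13 had an unadjusted p under 0.05, as did 1697 of all 13050 features and 13.6% of the genes with another symbol. Without the 49, 13 of 1459 genes with a symbol were called (0.891%). Slc2a1, the glucose transporter GLUT1, was among the most abundant transcripts, with 284994, 309123 and 257320 normalized counts in AL rats and 389016, 382257 and 355198 in F2 rats. Its groups did not overlap, and it missed the threshold (LFC 0.40, standard error 0.09, adjusted p = 0.0612), which it passed with DESeq2's Wald test (1.64e-05) and with limma's voom and sample quality weights (0.0295). The taurine transporter gene Slc6a6 had 13348, 11985 and 16560.5 against 8764, 7441 and 11243 (LFC -0.61, adjusted p = 0.113). Its groups did not overlap, and it passed with DESeq2's Wald test (0.0153) and without F2 sample k (0.0496). The glutamate transporter gene Slc1a1 had 2656, 4402 and 4549 against 8397, 6559.6 and 3507, with 1 F2 sample among the AL samples (LFC 0.67, adjusted p = 0.347). The glutamine transporter gene Slc38a3 (LFC 0.17, adjusted p = 0.486) and the thiamine transporter gene Slc19a3 (0.30, 0.565) were not called at day 2. Day 1 gave an LFC of 0.44 (adjusted p = 0.0137) and 0.80 (0.0310), and day 3 gave 0.41 (0.0115) and 1.01 (0.00567). For Slc19a3, F2 sample j had 3581 normalized counts and samples i and k had 7127 and 5679, against 4105, 4493 and 4723 in AL rats. None of the 38 ABC transporter genes was called, and 6 had an unadjusted p under 0.05, a share near the 13.6% of the genes with a symbol other than the 49 solute carriers. Abcb1a, which encodes P-glycoprotein, had 72799, 75046 and 75650.5 normalized counts in AL rats and 82601, 67163 and 80644 in F2 rats (LFC 0.04, adjusted p = 0.876, and -0.01 without F2 sample i). Abcc4 had 10020.1 in F2 sample j and 14762 and 15026 in samples i and k, against 14921 to 15150.5 in AL rats (LFC -0.18, adjusted p = 0.576). For the efflux transporter gene Abcg2 the LFC was 0.37 (adjusted p = 0.214).

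Slc2a12, the glucose transporter GLUT12, was the clearest case of a gene whose result turned on F2 sample j. It had 1764, 1828 and 2358 normalized counts in AL rats, 4308 and 3795 in F2 samples i and k, and 1839 in F2 sample j. With the 3 samples the LFC was 0.74 (standard error 0.23, adjusted p = 0.167), and without sample j it was 1.03 (adjusted p = 0.00278). F1 and F3 rats had 3909 ± 18.8 and 4071 ± 367 (SD, n = 3). Slc2a12 is one of the 49 solute carriers chosen on these samples because they differed in F1, F2 or F3 rats, so these values are not independent evidence.

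The bradykinin B2 receptor gene Bdkrb2 (ENSRNOG00000047300) rose most among the called receptor genes that had a symbol. It had 886, 1059 and 641 normalized counts in AL rats and 1762, 1604 and 1845 in F2 rats, all above the AL samples (2.01-fold, LFC 1.01, standard error 0.13, adjusted p = 0.00424). The call held in all 6 fits with 1 sample left out. F1 rats had 1182 ± 7.49 and F3 rats 1142 ± 86.0 (SD, n = 3), and F2 rats lay above F3 rats in Bdkrb2 (LFC 0.61, standard error 0.13, adjusted p = 0.0206, where 5.88% of features were called), a call that was lost without F2 sample k (0.0545). Against F1 rats the LFC was 0.56 (adjusted p = 0.0609). Of the 15 tested genes of vasoactive peptides and their receptors, Bdkrb2 was the only one called (0.995% of the genes with a symbol were). In this list 5 had an unadjusted p under 0.05 (13.6% of the genes with a symbol other than a solute carrier did). The B1 receptor gene Bdkrb1, which bradykinin fragments activate, had about 1 normalized count in each AL sample and 4.01, 7.93 and 4.01 in F2 rats (unadjusted p = 0.00206, adjusted p = 0.107), too few for a fold. Ace, which degrades bradykinin, had LFC -0.05 (adjusted p = 0.845). The adrenomedullin receptor gene Calcrl (-0.25, adjusted p = 0.228) and the apelin receptor gene Aplnr (-0.37, 0.215) did not pass.

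Ackr3 (ENSRNOG00000019622), a decoy receptor that removes the chemokine CXCL12 and adrenomedullin, had 3993, 3847 and 2960 normalized counts in AL rats and 5949, 5230.0 and 5352 in F2 rats (LFC 0.61, standard error 0.12, adjusted p = 0.0372). F2 samples lay above all AL samples, and the call was lost without AL sample k (0.153), F2 sample i (0.141) and F2 sample k (0.0641). Adtrp (ENSRNOG00000014481), which encodes an endothelial regulator of tissue factor pathway inhibitor, had 2249, 2305 and 2323 in AL rats and 2981, 3080.2 and 2889 in F2 rats. Its change was small but exceeded the spread between samples, which was narrow in both groups (LFC 0.38, standard error 0.06, adjusted p = 0.0119), and held in all 6 fits with 1 sample left out. F1 rats had 2419.97 ± 116 and F3 rats 2568 ± 77.6 (SD, n = 3), and the difference of F2 from F1 rats passed the test (LFC 0.30, standard error 0.06, adjusted p = 0.0349). That difference was lost without each of F2 samples i (0.0616), j (0.0524) and k (0.0613), and the LFC against F3 rats was 0.22 (adjusted p = 0.0537).

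The enzyme genes Alas1 and B4galt4 rose. Alas1 (ENSRNOG00000056596) had 12155, 14592 and 10471 normalized counts in AL rats and 23144, 21419 and 22388 in F2 rats (1.80-fold, LFC 0.85, standard error 0.12, adjusted p = 0.00585), with all F2 samples above the AL samples and the call kept in all 6 fits with 1 sample left out. B4galt4 (ENSRNOG00000003114), a galactosyltransferase, had 1193, 1505 and 1278 against 2104, 2145 and 1851 (LFC 0.62, standard error 0.11, adjusted p = 0.0248). Its call was lost without AL sample i (0.0654), AL sample k (0.121) and F2 sample i (0.0963). For both genes F2 and F1 rats were close: the LFC of F2 against F1 rats was -0.06 (adjusted p = 0.853) for Alas1 and -0.02 (0.944) for B4galt4.

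Akap12 (ENSRNOG00000019549), a scaffold for protein kinases A and C, had 2042, 2434 and 1437 normalized counts in AL rats and 4393, 3676 and 4412 in F2 rats (2.11-fold, LFC 1.08, standard error 0.20, adjusted p = 0.0236). Its F2 samples lay above all AL samples, and the call was lost without AL sample k (0.0996), F2 sample i (0.0864) and F2 sample k (0.0572). Of the 14 A-kinase anchoring protein genes tested, Akap12 was the only one called (0.995% of the genes with a symbol were). Baiap2 (ENSRNOG00000004049), which links small GTPases to actin protrusions, had 1080.3, 1317 and 1044 in AL rats and 2109, 1936 and 1771 in F2 rats (LFC 0.76, standard error 0.10, adjusted p = 0.00431), and its call held in all 6 fits. Baiap2 stood lower at day 2 than at day 3 (LFC of F2 against F3 rats -0.55, standard error 0.10, adjusted p = 0.0110), which had 2843 ± 104 (SD, n = 3). Arhgap33 (ENSRNOG00000024677), a GTPase activating protein gene, had 418, 411 and 398 in AL rats and 575, 607 and 577 in F2 rats (LFC 0.52, standard error 0.10, adjusted p = 0.0265). That call was lost without AL sample j (0.0517), AL sample k (0.125), F2 sample i (0.0831) and F2 sample k (0.0523).

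Arhgef15 (ENSRNOG00000004566), a guanine nucleotide exchange factor of endothelial cells, had 6063, 6698 and 7104 normalized counts in AL rats and 4814, 5034 and 4684 in F2 rats (LFC -0.45, standard error 0.07, adjusted p = 0.00851). All F2 samples lay below the AL samples, and the call held in all 6 fits with 1 sample left out. Its fall was smaller than in F3 rats, which had 3836 ± 45.3 (SD, n = 3), as F2 rats lay above F3 rats (LFC 0.34, standard error 0.07, adjusted p = 0.0158). Afap1l1 (ENSRNOG00000019403) had 8463, 9119 and 10676 in AL rats and 7197, 6968 and 6932 in F2 rats (LFC -0.42, standard error 0.09, adjusted p = 0.0461). This call was near the threshold and was lost in 5 of the 6 fits with 1 sample left out, with adjusted p-values of 0.0565 (AL sample j), 0.195 (AL sample k), 0.129, 0.0664 and 0.102 (F2 samples i, j and k). Afap1l1, too, stood higher at day 2 than at day 3 (LFC 0.41, standard error 0.09, adjusted p = 0.0191), which had 5278 ± 352 (SD, n = 3). Among 38 tested genes of the actin cytoskeleton, Baiap2 rose and Afap1l1 fell (0.995% of the genes with a symbol were called). Of the 38, 8 had an unadjusted p under 0.05 (13.6% of the genes with a symbol other than a solute carrier did).

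Adam17 (ENSRNOG00000060694), which cleaves TNF-alpha and other membrane proteins, had 6548, 6619 and 7059.7 normalized counts in AL rats and 5474, 4803 and 5038 in F2 rats (LFC -0.40, standard error 0.07, adjusted p = 0.0177), with the groups apart. Leaving out AL sample k (0.106) or F2 sample k (0.0522) ended the call. Adam17 was the only called member of 26 ADAM and ADAMTS genes tested (0.995% of the genes with a symbol were called). Anxa1 (ENSRNOG00000017469), an anti-inflammatory annexin that glucocorticoids induce, had 512, 534 and 590.0 in AL rats and 354, 368 and 418 in F2 rats (LFC -0.52, standard error 0.10, adjusted p = 0.0321). The call was lost without AL sample j (0.0502), AL sample k (0.161), F2 sample i (0.134) and F2 sample j (0.0542), and none of the other 8 annexin genes tested was called. In the list of inflammation and interferon, 16 of 40 genes were tested, of which Ackr3 rose and Anxa1 fell (0.995% of the genes with a symbol were called). Casp1, the inflammatory caspase, had 843, 764 and 967 in AL rats and 581, 794 and 621 in F2 rats (LFC -0.37, adjusted p = 0.203). It was called without F2 sample j (LFC -0.51, adjusted p = 0.0378), as was Bst2, an interferon-induced antiviral gene (LFC -0.58, adjusted p = 0.0770 with all samples, LFC -0.73, adjusted p = 0.0218 without sample j).

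Cacybp (ENSRNOG00000002572) had the largest fall among the 5 genes with a symbol that were called lower. It had 1454, 1585 and 1781 normalized counts in AL rats and 1069, 1048 and 833 in F2 rats, all below the AL samples (LFC -0.71, standard error 0.13, adjusted p = 0.0215). The call was lost without AL sample k (0.117), F2 sample i (0.0508) and F2 sample k (0.0581). F1 rats had 891 ± 83.3 and F3 rats 788 ± 125 (SD, n = 3). The list of heat shock chaperones held 4 tested genes of 25, and all had an LFC below 0 and an unadjusted p under 0.05, beside 6.83% of the tested genes with a symbol that were below AL rats at such a p. Cacybp was the only one of them called (0.995% of the genes with a symbol were). The genes of the chaperones HSP70 and HSP90 had no symbol here and were not looked up, so the values describe these 4 genes only. Ahsa1, an activator of the chaperone HSP90, had 2384, 2851 and 2759 in AL rats and 1941, 2002 and 1627 in F2 rats (LFC -0.52, adjusted p = 0.0561), and was called without F2 sample j (-0.58, 0.0471). Its paralog Ahsa2 had an LFC of -0.34 (adjusted p = 0.174), and Bag3, a co-chaperone of HSP70, one of -0.31 (0.110). The median of the 4 was -0.43, with at most a shift of 0.04 in the median of all features under any scaling.

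**Figure D4:**
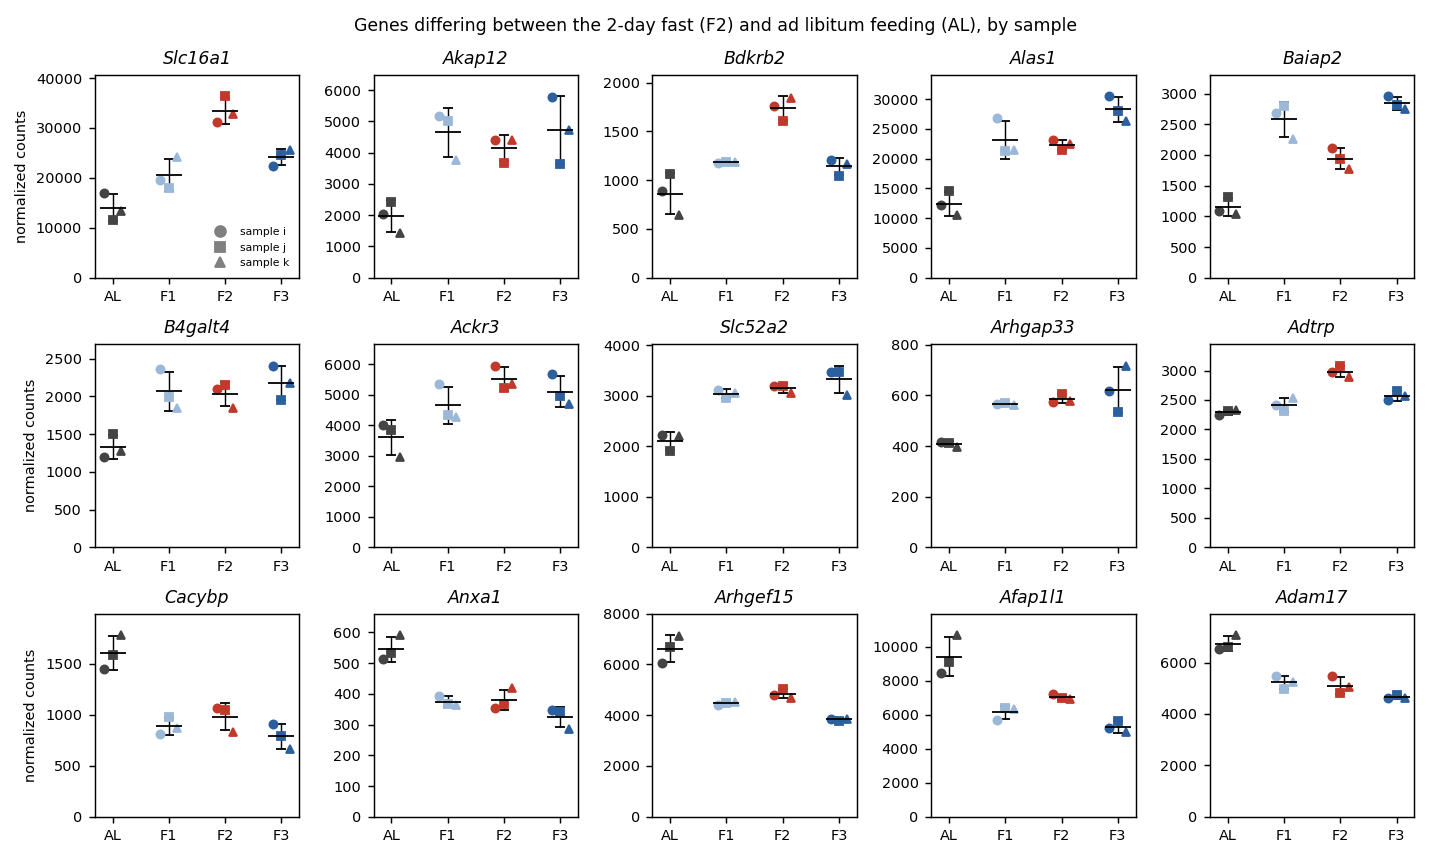
Normalized counts (vertical axes, from 0) of the 15 genes with a symbol that differed between F2 and AL rats, by group (horizontal axis). Points are samples i (circles), j (squares) and k (triangles), and bars give the mean and SD (n = 3). In every panel the F2 samples (red) and AL samples (grey) do not overlap, and the F2 mean is the highest of the 4 groups for Slc16a1, Bdkrb2, Ackr3 and Adtrp.

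The same genes had these values at the other days, in comparisons that share the AL samples. In F1 rats, where 6.57% of features were called, 12 of the 15 had an adjusted p of at most 0.05, all but Bdkrb2 (LFC 0.45, adjusted p = 0.0648), Ackr3 (0.37, 0.0957) and Adtrp (0.08, 0.516). At day 3, 6.28% of features were called higher and 5.73% lower than in AL rats. Of the 15 genes, 8 were among those called higher and 5 among those called lower, and Bdkrb2 (0.40, 0.0714) and Adtrp (0.16, 0.105) missed the threshold. Angptl4 had 9118, 11616 and 11569.6 normalized counts in AL rats and 11885, 12243 and 11789 in F2 rats (LFC 0.15, standard error 0.10, adjusted p = 0.552), while the F1 mean was 15108 ± 1273 and the F3 mean 16144 ± 1135 (SD, n = 3), and it stood lower at day 2 than at day 3 (LFC -0.43, adjusted p = 0.0256). Of the 120 features, day 2 also differed from day 1 in 10 (1.34% of all features were called), from day 3 in 24 (5.88%), and from both days in 4. The 120 were chosen by their F2 values, which these comparisons use again, so the counts are not independent evidence.

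Genes of fatty acid oxidation and PPAR targets showed 0 calls at day 2 among 28 tested of 61 listed (edgeR), while 11 had an unadjusted p under 0.05, of which 9 were above and 2 below AL rats (7.16% and 6.83% of the tested genes with a symbol). Acads, a short-chain acyl-CoA dehydrogenase, had 505, 482 and 552 normalized counts in AL rats and 641, 822 and 635 in F2 rats (LFC 0.45, standard error 0.12, adjusted p = 0.107). Acot2, a mitochondrial thioesterase, had 368, 331 and 283 against 467, 510.2 and 429 (LFC 0.52, adjusted p = 0.0621), and Acad9, an acyl-CoA dehydrogenase needed to build respiratory complex I, had 690.1, 970.1 and 668 against 998, 1222 and 1107 (LFC 0.51, adjusted p = 0.0733). In these 3 genes the F2 samples lay above all AL samples, and Acot2 stood higher at day 2 than at day 3 (LFC 0.47, adjusted p = 0.0357). Acadl had an LFC of 0.25 (adjusted p = 0.191), and Acadm, the medium-chain enzyme, one of 0.21 (0.237). Those below AL rats were Acsl4 (-0.30, 0.333) and Acad11 (-0.18, 0.349). The peroxisomal gene Cat had 3598 and 3503 in F2 samples i and k and 2629 in sample j, against 2483, 2790 and 2973 in AL rats, and was called without sample j (LFC 0.37, adjusted p = 0.0497). DESeq2's Wald test called Acads (adjusted p = 0.0204). The median LFC of the 28 was 0.06, and 0.07 without F2 sample j.

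**Figure D5:**
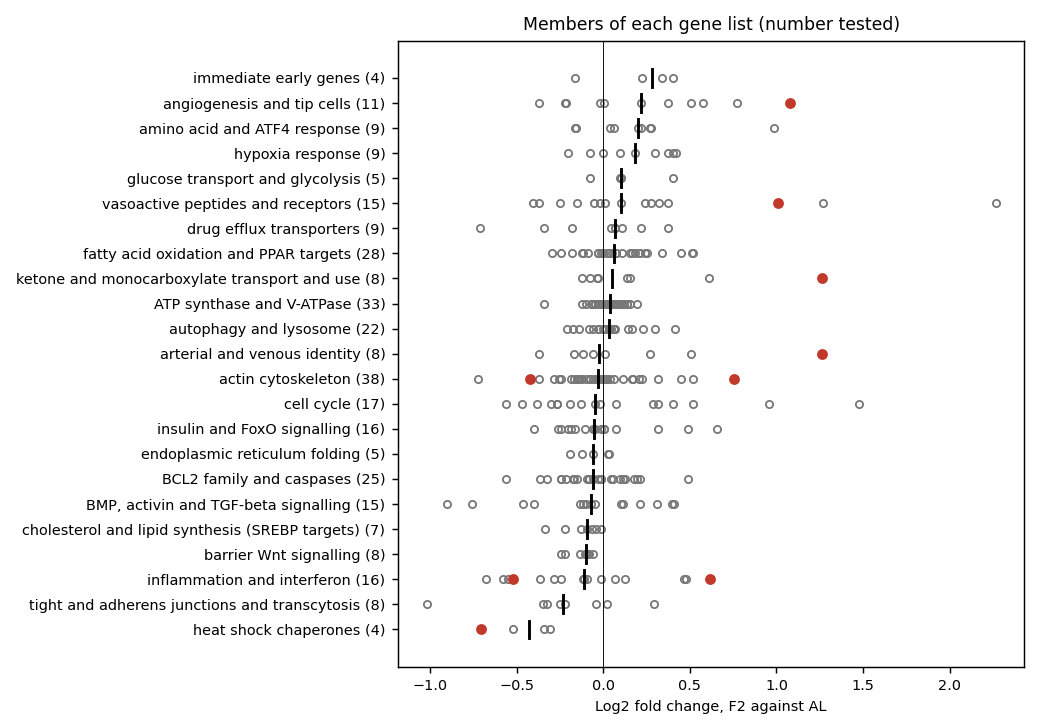
LFC of F2 against AL rats (horizontal axis) for the tested members of the pathway lists with at least 4 of them (vertical axis, number tested in parentheses, families named by a shared symbol not drawn). Filled red points had an adjusted p of at most 0.05, open points did not, and vertical bars are medians of the tested members only. The medians run from -0.43 for the heat shock chaperones to 0.28 for the immediate early genes, with 4 tested genes in each of these 2 lists.

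No call was made among the 8 tested genes of junctions and transcytosis (4 at an unadjusted p under 0.05, all below AL rats, as were 6.83% of the tested genes with a symbol). Most of the 29 genes of this list, claudin-5 and VE-cadherin among them, had no symbol here and were not looked up. The values thus do not describe the barrier as a whole. Amotl2, a junctional angiomotin, had 970, 781 and 1589 normalized counts in AL rats and 486, 542 and 614 in F2 rats, apart from each other but widely spread in AL rats (LFC -1.02, standard error 0.23, adjusted p = 0.0587). Amot had an LFC of -0.35 (adjusted p = 0.130), the caveolar gene Cav1 -0.33 (0.139) and Cav2 -0.22 (0.362). The 8 tested genes of barrier Wnt signalling, of 26 listed, all had an LFC below 0, with none called and 0 at an unadjusted p under 0.05. Their median was -0.10, beside -0.01 over all features, and -0.03 without F2 sample j. The 7 tested genes of cholesterol and lipid synthesis also all had an LFC below 0.

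None of the 16 tested genes of insulin and FoxO signalling was called, nor any of the 9 of the hypoxia response. Of these, 2 and 3 had an unadjusted p under 0.05 (13.6% of the genes with a symbol other than a solute carrier did). Arrdc3, an arrestin-like gene that FoxO proteins and fasting raise in other tissues, had 6904, 5231 and 4681 normalized counts in AL rats and 10526, 7195 and 8761 in F2 rats (LFC 0.65, standard error 0.15, adjusted p = 0.0566), and was called without F2 sample j (0.78, 0.0211). Bcl2l11, the proapoptotic gene BIM, had 749, 958 and 630.0 against 1297, 909 and 1075, with F2 sample j among the AL samples (LFC 0.49, adjusted p = 0.198). In the hypoxia list Slc2a1, Bnip3 (LFC 0.30, adjusted p = 0.206) and Ankrd37 (0.42, 0.349) had an unadjusted p under 0.05. Slc2a1 is one of the 49 solute carriers chosen on these samples. Of 11 tested genes of angiogenesis and tip cells, Akap12 was called (0.995% of the genes with a symbol were). Angpt2, an antagonist of the receptor TIE2, had 621, 1259 and 702 against 1361, 1351 and 1141 (LFC 0.58, adjusted p = 0.245).

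No gene was called in the lists of cholesterol and lipid synthesis (7 tested), glucose transport and glycolysis (5), the circadian clock (3), the amino acid and ATF4 response (9), endoplasmic reticulum folding (5), BMP, activin and TGF-beta signalling (15), the cell cycle (17), the BCL2 family and caspases (25), autophagy and the lysosome (22), drug efflux transporters (9), immediate early genes (4), ATP synthase and V-ATPase (33), P-type ATPases (21) or aminoacyl-tRNA ligases (2). With 0.995% of the genes with a symbol called, few or no calls are likely in lists of these sizes. Several lists were tested in small part, such as 7 of 35 genes of cholesterol and lipid synthesis and 4 of 28 immediate early genes. The absence of calls thus does not describe whole pathways. In the glucocorticoid response Anxa1 was called of 3 tested, and in arterial and venous identity Slc16a1 of 8. Among the immediate early genes, which respond to handling of cells, Atf3 ranged from 4838 to 14970 normalized counts in AL rats and from 7148 to 11622 in F2 rats (LFC -0.16, adjusted p = 0.873), and Apold1 from 78483 to 121593 and from 114341 to 155753 (0.40, 0.267). Atp6v0a1, a subunit of the proton pump, had 11029, 10893 and 10798.5 in AL rats and 7878, 8536 and 9371 in F2 rats (LFC -0.34, adjusted p = 0.0787).

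Leaving out F2 sample j gave 154 calls (1.18% of 13090 features), of which 94 were among the 120, 60 were new and 26 of the 120 were lost. With a symbol, 13 genes were new, and Anxa1 and Afap1l1 were lost. Besides Slc2a12, Casp1, Bst2, Arrdc3, Ahsa1 and Cat, the new genes were Arhgap27 (LFC 0.39, adjusted p = 0.0307), B3galt5 (0.92, 0.0393), Armcx4 (0.38, 0.0321), Apbb2 (0.32, 0.0374), Adamtsl1 (0.98, 0.0307), Amd1 (-0.33, 0.0471) and Akr1cl (-0.29, 0.0496). Adamtsl1 is one of the 5 fibroblast markers and was low, with 44.2, 47.1 and 48.9 normalized counts in AL rats and 79.2, 31.7 and 105 in F2 rats. Limma's voom with sample quality weights kept all 12 samples and gave F2 sample j a weight of 0.192, where the other 11 had 0.773 to 1.88. It called 156 features, of which 108 were among the 120, and Slc2a12 (LFC 0.96, adjusted p = 0.00658), Arrdc3 (0.79, 0.00905), Bst2 (-0.71, 0.00994), Casp1 (-0.47, 0.0346) and Ahsa1 (-0.57, 0.0306) were among its calls. Without sample j and with only the remaining 5 AL and F2 samples, edgeR called 0 features (1637 at an unadjusted p under 0.05).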

How the data were processed

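RNA of cerebral endothelial cells was measured by RNA-Seq in 12 pooled samples (3 each of AL, F1, F2 and F3 rats) with 4 technical replicates each. Per the labels and the study's methods, libraries were stranded poly(A) libraries. The submitters' processing notes name bcl2fastq 2.18.0.12, STAR, HTSeq 0.5.3 and the genome build Rnor_6.0, and the authors removed reads with more than 1 match and deposited raw counts per gene, not normalized. The strand setting of the counting is not given in the sources used here, so reads of overlapping and antisense genes may be mixed. Paralogs such as Ahsa1 and Ahsa2 can lose reads that match both.

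Counts of the 4 technical replicates were summed, since they agree within sampling noise (chi-square over degrees of freedom 1.00 to 1.02, against 9.75 to 51.5 between samples of the same group). Technical replicate d of F1 sample k is labelled both as F1 and as a fast of 2 days, and was kept in F1 by its title. AL samples had 20718644 to 24779719 assigned reads and F2 samples 23537074 to 24277115. A feature was kept where no sample had 0 reads. The fit used TMM scaling factors and 4 group means that share 1 estimate of the spread over the 12 samples, and differences were tested by quasi-likelihood F tests (edgeR 4.0.16, R 4.3.3). Benjamini-Hochberg adjustment ran over the 13050 features kept, the threshold was 0.05, and standard errors of LFC come from the same F tests. Log2 CPM used a prior count of 2. Samples of a group come from independent experiments, so p-values measure the spread between pools and not between animals. The letters i, j and k were not treated as pairs: across AL and F2 rats, deviations of same-lettered samples from their group means correlated with r = -0.04, 0.05 and 0.20.

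Symbols (names only) came from a shortened, alphabetical copy of the study's gene table and from its sheet of differing transporters, which alone named the 49 solute carriers. They cover 2043 of the 13050 features, 1508 of them gene symbols and the others clone names. Genes were named by rule: up to 15 rises and 15 falls past the threshold with a symbol, at least 100 normalized counts and groups that do not overlap, members of gene lists (past the threshold or with the smallest unadjusted p or high abundance), genes the study names, and the 5 genes with the largest excess of variance in F2 rats at a mean of at least 100 normalized counts. Genes called only without F2 sample j, and further genes low in that sample, were named after their values were seen. The members, the 34 gene lists and the 9 marker lists were chosen with earlier results of these data known. Alternatives were other scalings, filters, DESeq2 1.42.0, limma 3.58.1, the replicate letter as a block, robust estimation, and leaving out samples; 2 of them, both because F2 sample j stands apart, were added after the data were seen. Some results are not reported here. The fit was tested on simulated data after a first fit of the real counts.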

Additional observations from a re-analysis of the deposited data

Results flagged for a closer look

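The results below are listed because day 2 differed from another day of fasting by the edgeR test of that difference itself (n = 3 samples each, adjusted over all features). Of all features, 1.34% were called against F1 rats and 5.88% against F3 rats. Apart from Angptl4, which the study names, the genes were picked by F2 values that these tests use again. The differences are thus not independent evidence. Slc16a1 was 0.703 (LFC) above F1 rats at day 2 and Adtrp 0.302 above. Both differences were lost without F2 sample j and without F2 sample k, and that of Adtrp also without F2 sample i.

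Against F3 rats, Bdkrb2 stood 0.605 (LFC) higher at day 2, and this difference was lost without F2 sample k. The falls that both days shared for 2 genes were smaller at day 2: Arhgef15 stood 0.336 and Afap1l1 0.414 above F3 rats. Baiap2, with an LFC of -0.552, and Angptl4, with -0.431, stood below F3 rats. For Arhgef15, Afap1l1 and Baiap2 the difference passed the threshold without any 1 of the F2 samples, at adjusted p-values of at most 0.0464.

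Casp1 stood 0.496 (LFC, adjusted p = 0.0333) above F3 rats, which had 472 ± 42.7 normalized counts (SD, n = 3). F2 sample j, with 794, was the highest of the F2 samples for this gene. F1 and F3 samples were not left out in turn.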

How the results depend on the processing

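The 120 calls became 359 with DESeq2's Wald test, 196 with no filter on low counts and 24 at an adjusted p of at most 0.01. They became 0 (1189 at an unadjusted p under 0.05) in edgeR models of only the 6 samples, and 0 (1637) of these less F2 sample j, where fewer samples leave fewer degrees of freedom. Leaving out 1 AL or F2 sample gave 38 to 154 calls, with 38 without AL sample k, 40 without F2 sample i, 92 without F2 sample k and 154 without F2 sample j. The other alternatives gave 112 to 156. All 15 genes with a symbol kept the sign of their LFC in all 19 alternatives. The LFC of Abcb1a, not called in any alternative, turned to -0.01166 without F2 sample i and, among the fits with 1 sample left out, was highest without F2 sample j (0.1316). The median standard deviation within F2 rats ranged from 0.06549 without sample j to 0.1559 without sample i. With the replicate letter as a block there were 124 calls (100 shared with the 120), and Anxa1 (adjusted p = 0.0512) and Afap1l1 (0.0558) were lost. Across AL and F2 rats, same-lettered deviations correlated with r of -0.04 to 0.20. Over all pairs of groups, same-lettered r ran from -0.11 (F1 and F2 samples k) to 0.21 (F1 and F3 samples i). Differently lettered r ran from -0.25 (AL sample k and F3 sample i) to 0.28 (AL sample k and F3 sample j). The labels do not say whether samples of the same letter came from the same experiment, and this was not tested. The difference of Adtrp between F2 and F1 rats was also lost under the block (0.0579).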
